A study of Mus musculus with 32 samples.

Results

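The 10 genes examined here encode secreted Wnt ligands and were followed in 32 primary mouse melanomas. They are Wnt2, Wnt3, Wnt4, Wnt5a, Wnt6, Wnt7b, Wnt10a, Wnt10b, Wnt11 and Wnt16, chosen by name and found by gene identifier among the 50600 genes of the count table. Each was examined tumour by tumour, and the ligands that followed Krt5 and Krt14, the keratin pair of the basal epidermis, were set apart from those that did not. RNA of polyadenylated transcripts was sequenced from 4 groups of 8 tumours. All tumours arose in mice with Tyr::NrasQ61K, an oncogenic Nras transgene that the Tyr promoter drives in melanocytes, with 1 copy of the tumour suppressor gene Cdkn2a deleted (Cdkn2a-/+) and with both copies of Cdh1, the gene of E-cadherin, flanked by recombination sites (Cdh1F/F). Ecad tumours carried no further transgene (°/°), and ΔEcad tumours came from mice that the study describes as carrying a Cre recombinase under the Tyr promoter, where the labels write Tyr::NRAS/°. Recombination is thus limited to cells in which that promoter works, and the other cells of a tumour keep Cdh1. Both genotypes were sampled in males and females, the ages of the mice are not given in the sources used here, and no normal skin was included. Wherever a p-value is given, it measures the spread between tumours that the labels number separately, without saying whether any came from the same mouse.

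Wnt proteins are lipid-modified signals that act over short distances. The enzyme Porcn attaches the lipid and the carrier Wls brings the ligand to the cell surface. On the receiving cell, Frizzled receptors together with Lrp5 or Lrp6 stabilise beta-catenin, which then acts with TCF and LEF factors on DNA, while Ror2 and Ryk transmit signals that do not need beta-catenin. E-cadherin binds beta-catenin at cell junctions. In skin, Wnt3, Wnt4, Wnt6, Wnt7b, Wnt10a, Wnt10b and Wnt16 are known from the epidermis and its hair follicles, Wnt2, Wnt5a and Wnt11 from mesenchyme among other places, and Wnt5a from invasive melanoma.

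Total counts ranged from 24036333 to 63923086 per tumour. The library labelled ΔEcad male 2 went against its sex label, with 6.41 TPM of Xist and 0 counts over 4 Y-linked genes, whereas the 15 other males had at most 0.2 TPM of Xist and at least 1459 counts. Among the females, ΔEcad female 1 had the most Y-linked counts, 92, beside 101.22 TPM of Xist, and Ecad female 4 came next with 4. ΔEcad male 2 stayed in the group of its label, and counts of ligands past a threshold that change without it are given both ways. Cdh1 RNA was at 145.8 ± 87.5 TPM in Ecad males against 13.05 ± 21.7 TPM in ΔEcad males. In females it was at 50.5 ± 52.9 TPM with Ecad and 55.2 ± 54.1 TPM with the ΔEcad label (SD, n = 8 each), so directions between the female genotypes rest on the labels. By the edgeR quasi-likelihood test used below, the log2 fold change of Cdh1 in males was -3.33 (SE 0.96, adjusted p 0.365). That in females was -0.002 (SE 0.87, adjusted p 0.999). The part of cells that keep Cdh1 in these levels was not tested. ΔEcad male 7 had almost none of the melanocytic markers (31.5 TPM summed over 7 genes, with Tyr at 0.11 and Sox10 at 0.49 TPM) and 5642 TPM summed over 8 fibroblast markers. TPM divides the counts by gene length before scaling to a fixed sum per tumour, so it allows levels of different genes to be compared. CPM, counts scaled for the library total alone, is not scaled for length and was used within a gene.

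The start regions of 7 ligands were found in RefSeq, from 250 bases before to 50 bases after the start of the transcript (GRCm38.p6), 8 windows in all because Wnt11 has 2 starts. Those of Wnt3, the ligand that followed the keratins most closely, of Wnt11, the ligand with the clearest difference between genotypes, and of Wnt2, the ligand that followed the keratins least, are shown. They lie at chr11:103773925-103774224 (plus strand), chr7:98834862-98835161 (plus strand, the upstream of the 2 starts) and chr6:18030396-18030695 (minus strand). Capitals mark GCCNNNGGC, the motif of AP-2 factors that are abundant in epidermis, and in the Wnt11 window also the reverse complement of CTTTGA, the core bound by TCF and LEF factors.
Wnt3: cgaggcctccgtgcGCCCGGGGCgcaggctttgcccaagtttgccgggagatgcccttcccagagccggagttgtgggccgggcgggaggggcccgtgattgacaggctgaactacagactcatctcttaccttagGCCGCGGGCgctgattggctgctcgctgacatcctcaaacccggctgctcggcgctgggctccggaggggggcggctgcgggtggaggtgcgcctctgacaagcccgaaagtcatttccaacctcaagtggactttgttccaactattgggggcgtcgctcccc
Wnt11: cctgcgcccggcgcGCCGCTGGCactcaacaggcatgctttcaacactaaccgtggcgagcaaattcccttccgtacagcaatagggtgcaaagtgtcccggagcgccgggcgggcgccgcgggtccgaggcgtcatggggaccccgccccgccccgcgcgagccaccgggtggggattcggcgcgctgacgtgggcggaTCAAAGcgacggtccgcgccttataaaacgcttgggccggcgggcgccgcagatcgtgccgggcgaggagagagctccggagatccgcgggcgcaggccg
Wnt2: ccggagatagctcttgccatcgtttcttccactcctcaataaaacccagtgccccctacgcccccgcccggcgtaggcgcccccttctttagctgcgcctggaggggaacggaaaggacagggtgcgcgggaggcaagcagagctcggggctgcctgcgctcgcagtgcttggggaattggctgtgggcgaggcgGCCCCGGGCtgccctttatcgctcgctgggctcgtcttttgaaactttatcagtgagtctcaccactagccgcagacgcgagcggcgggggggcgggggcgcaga
Both strands were searched, and the motifs shown do not overlap. GCCNNNGGC was present in 8 of the 8 windows, against 16.6% of 32851 such windows in the genome, and it stood before ligands of either behaviour, Wnt2 included. The 8 windows were rich in G and C, from 58.0% to 84.3%, where the median over all windows was 52.7%. CTTTGA was present in the upstream Wnt11 window alone of the 8, against 16.0% of all windows. The AP-1 motif TGANTCA was in none of the 8, against 7.8% of all windows. A match is a stretch of letters and not a binding site, and the absence of a match speaks only of these windows.

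Wnt5a and Wnt4 were the most abundant of the ligands. Over the 32 tumours the median level was 7.02 TPM for Wnt5a, 6.13 TPM for Wnt4, 1.23 TPM for Wnt7b, 0.92 TPM for Wnt10a, 0.88 TPM for Wnt6, 0.72 TPM for Wnt11, 0.39 TPM for Wnt2, 0.23 TPM for Wnt10b, 0.14 TPM for Wnt16 and 0.13 TPM for Wnt3. Each varied widely between tumours. Wnt5a ranged from 0.02 TPM in Ecad female 8 to 64.55 TPM in ΔEcad female 8, and Wnt4 from 0.08 TPM to 69.17 TPM in ΔEcad female 2. Wnt3, at the bottom of the order, reached 29.39 TPM in ΔEcad female 2 and had 3 counts or fewer in 15 of the 32 tumours, as did Wnt16. Of the 9 pairs of neighbours in this order, 2 differed beyond their spread over tumours in a two-sided paired permutation test on log2(TPM + 0.1). Wnt4 lay above Wnt7b in 29 of 32 tumours (mean log2 difference 2.29, SD 3.03, permutation p adjusted over the 9 pairs 0.00225), and Wnt11 above Wnt2 in 24 of 32 (0.93, SD 1.79, adjusted permutation p 0.0279). Wnt5a and Wnt4 could not be ordered, since each lay above the other in 16 tumours (adjusted permutation p 0.87). Wnt4 over Wnt7b was also called with a pseudocount of 0.01 or 1 TPM, whereas Wnt11 over Wnt2 was not with 0.01 TPM (adjusted permutation p 0.0526). With 1 TPM 4 pairs differed, Wnt10a over Wnt6 and Wnt3 over Wnt16 being added.

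The 10 ligands summed to between 2.25 TPM, in ΔEcad female 4, and 205.62 TPM, in ΔEcad female 2, with a median of 42.87 TPM. Wnt4 was the leading ligand in 16 tumours, Wnt5a in 14 and Wnt7b in 2. The leading ligand could make up nearly the whole sum, as Wnt5a did with 94.3% in ΔEcad male 4 and 92.4% in Ecad female 4, and as Wnt4 did with 85.0% in Ecad female 8. In ΔEcad female 2, with the largest sum, Wnt4 led with 33.6% of it and Wnt3, Wnt7b and Wnt10a each exceeded 25 TPM.

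**Figure D1:**
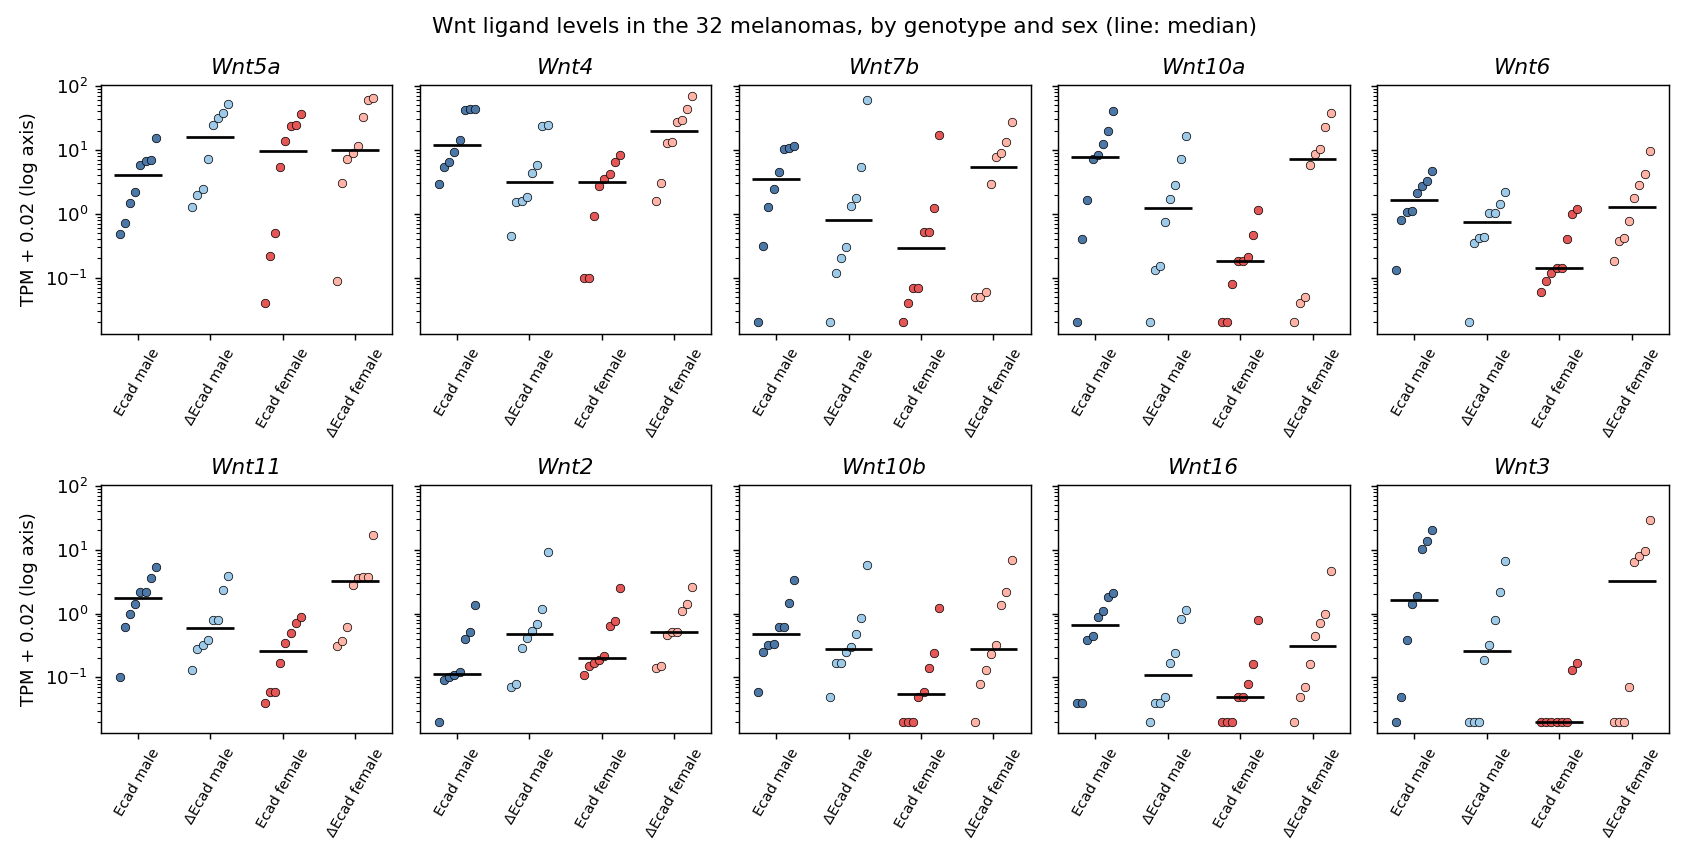
TPM of each ligand (log axis, 0.02 added) in the 4 groups of 8 tumours, in the order of the median over all tumours, with 1 point per tumour and a line at the group median. In every panel the groups overlap, and the Ecad females hold the lowest median of 7 ligands, such as Wnt10a with 0.16 TPM against 7.76 TPM in Ecad males.

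Krt5 and Krt14 spanned the whole range from 0 to 6485 and 9186 TPM, respectively. Both were under 10 TPM in 13 tumours, called keratin-poor here, and the other 19 are called keratin-rich. The limit of 10 TPM was chosen after the values were seen: the highest keratin-poor tumour, ΔEcad male 4, had 4.26 TPM of Krt5 and 8.89 TPM of Krt14, and the lowest keratin-rich tumour, ΔEcad male 6, had 18.98 and 34.72 TPM. The keratin-poor tumours were 1 of the 8 Ecad males, 6 of the 8 Ecad females, 3 of the 8 ΔEcad males and 3 of the 8 ΔEcad females. A list of 12 keratinocyte markers, which holds both keratins, split in the same way and summed to between 5.40 and 29.0 TPM in keratin-poor and between 86.7 and 41698 TPM in keratin-rich tumours. The 12 hair follicle markers did not split, with sums of 0.01 to 7.44 TPM in keratin-poor and 0.03 to 4234 TPM in keratin-rich tumours, 5 of which lay below 7.44 TPM. Since these are bulk samples, fewer cells of a type and less RNA per cell cannot be told apart.

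Of the 10 ligands, 8 followed the keratins. The measure was Spearman's rho between the log2 CPM of a ligand and the mean log2 CPM of Krt5 and Krt14 over the 32 tumours, and a ligand was taken to follow at 0.6 or more. It is given as a description without a test, because the relation was used to sort the ligands and because all genes of a tumour share its library. The Spearman correlation was 0.934 for Wnt3, 0.897 for Wnt10a, 0.758 for Wnt10b, 0.729 for Wnt4, 0.687 for Wnt7b, 0.66 for Wnt6, 0.65 for Wnt11 and 0.643 for Wnt16, the lowest inside the limit. Wnt5a, the first outside it, was at 0.035 and Wnt2 at -0.011, so among these 10 a wide gap separated both kinds. Other Wnt ligands lay within that gap, Wnt9b at 0.591 and Wnt9a at 0.477. Wnt3a was at 0.947, Wnt5b at 0.041 and Wnt2b at -0.09. Pearson's r gave 0.88 for Wnt3, 0.847 for Wnt10a and 0.57 for Wnt16, against 0.116 for Wnt5a and -0.166 for Wnt2. Without the 2 tumours farthest from the median keratin level, r was 0.874 for Wnt3, 0.824 for Wnt10a and 0.59 for Wnt16, and 0.085 for Wnt5a. Of all 17717 genes tested, 1608 (9.08%) reached a rho of 0.6, and the median over all genes was 0.019. With a limit of 0.7 in place of 0.6, 4 ligands followed (Wnt3, Wnt10a, Wnt10b and Wnt4), and with Pearson's r of 0.6 or more 5 did. The share of all genes past these other limits is not given here, so both counts lack a baseline. Without ΔEcad male 7 the number stayed at 8.

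**Figure D2:**
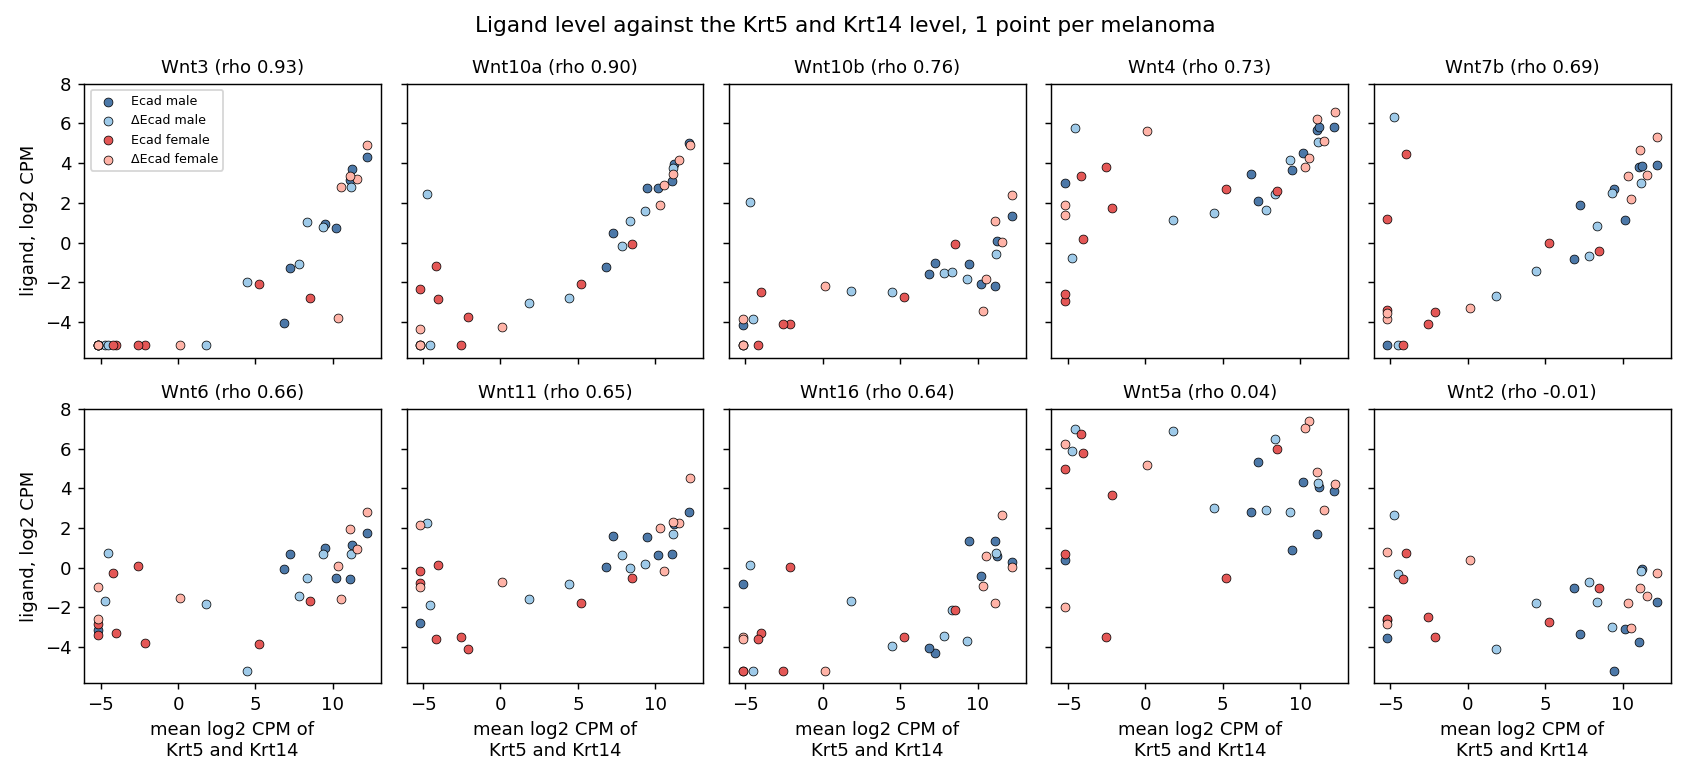
log2 CPM of each ligand against the mean log2 CPM of Krt5 and Krt14, 1 point per tumour, coloured by group, with Spearman's rho over the 32 tumours in the title. Wnt3 and Wnt10a lie higher toward the keratin-rich side, Wnt7b and Wnt4 do so with a few high points at the keratin-poor left, and Wnt5a and Wnt2 show no slope.

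Wnt3, a ligand that activates beta-catenin, came closest to an on and off pattern. It had 0 counts in all 13 keratin-poor tumours, which allows up to 3 counts in each. Among the 19 keratin-rich tumours its median was 1.85 TPM and its highest value 29.39 TPM. Within those 19 its rho with the keratins was 0.842. An exception was ΔEcad female 8, which had 1808 TPM of Krt5 but 0.05 TPM of Wnt3.

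Wnt10a, which is needed for skin appendages and teeth, tracked the keratins almost point by point among keratin-rich tumours (rho 0.982, n = 19). Its median was 7.14 TPM there and 0.03 TPM in keratin-poor tumours. Wnt4 and Wnt7b did so too, with a rho of 0.914 and 0.905 within the 19 tumours. Wnt10b, a hair follicle ligand, had 0.616 and Wnt6 0.696, Wnt11 had 0.812 and Wnt16 0.774. Wnt5a at 0.184 and Wnt2 at 0.289 stayed low within the keratin-rich tumours as well.

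Among the 13 keratin-poor tumours the keratins leave little to rank, since both were at 0 counts in 5 of them and at 3 counts or fewer in 9. A low rho with the keratins there says nothing about the ligands. It lay between -0.333 for Wnt11 and 0.565 for Wnt10b, and could not be computed for Wnt3. With the mean log2 CPM of the keratinocyte markers, which include Krt5 and Krt14, rho in the same tumours was 0.917 for Wnt10b. It was between 0.236 and 0.387 for the others of the 8 apart from Wnt3, for which it could not be computed either. The 28 pairs among the 8 following ligands had a median rho of 0.63 with each other over the 32 tumours, and those without Wnt3 had a median of 0.215 in the keratin-poor tumours. Wnt4 and Wnt7b, at 0.902 in keratin-rich tumours, were at -0.713 in keratin-poor ones. These are correlations over few tumours that share genes and libraries, and no test was made of them. Within the 4 groups of 8 the relation was uneven. In Ecad males rho was between 0.571 and 0.976 and in ΔEcad females between 0.755 and 0.994 for the 8 ligands. In Ecad females it was 0.81 for Wnt10b, 0.737 for Wnt3 and 0.712 for Wnt16, but -0.012 for Wnt7b, -0.144 for Wnt6 and -0.216 for Wnt11. In ΔEcad males Wnt3 was at 0.952 and the others at 0.5 or less, down to 0.19 for Wnt16. The median of the 4 groups reached 0.6 for 6 of the 8 ligands, and was 0.476 for Wnt6 and 0.514 for Wnt11.

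The keratin-poor tumours were not without Wnt ligands. Their sum of the 10 ligands had a median of 42.75 TPM, against 51.53 TPM in keratin-rich tumours. Wnt5a was the leading ligand in 7 of the 13 keratin-poor tumours, Wnt4 in 4 and Wnt7b in 2, whereas Wnt4 led in 12 and Wnt5a in 7 of the 19 keratin-rich ones. Wnt5a had a median of 13.55 TPM in keratin-poor and 6.73 TPM in keratin-rich tumours, with ranges of 0.02 to 52.76 and 0.2 to 64.55 TPM that overlapped almost fully. The 8 following ligands made up between 5.6% and 98.0% of the sum in keratin-poor tumours (median 45.0%) and between 24.4% and 98.2% in keratin-rich ones (median 87.5%).

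A few keratin-poor tumours carried high levels of ligands that otherwise followed the keratins. Wnt7b reached 60.31 TPM in ΔEcad male 7, its highest value in any tumour, and 16.81 TPM in Ecad female 2, where Krt5 was at 0 and 0.18 TPM. Wnt4 reached 29.24 TPM in ΔEcad female 5 and 24.51 TPM in ΔEcad male 8, where Krt5 was at 1.22 and 0 TPM, respectively. Wnt11 reached 3.68 TPM in ΔEcad female 3 and 3.79 TPM in ΔEcad male 7. ΔEcad male 7 also held the highest Wnt2 of all tumours with 9.12 TPM, and had 7.23 TPM of Wnt10a and 5.72 TPM of Wnt10b. In keratin-poor tumours the summed keratinocyte markers were 29.0 TPM or less, so in these samples the ligands were present with the markers of epidermis near 0. The tumours with high Wnt4 kept melanocytic markers, with Dct at 10521 TPM in ΔEcad female 5 and 10246 TPM in ΔEcad male 8, and so did Ecad female 2 with 6112 TPM, whereas ΔEcad male 7 had 4.98 TPM of Dct. Fibroblast markers summed to 9219 TPM in ΔEcad female 3 and 5642 TPM in ΔEcad male 7, both with high Wnt11, and Wnt11 had a rho of 0.769 with the fibroblast markers over the 13 keratin-poor tumours. The part of other cell types in these levels was not tested.

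**Figure D3:**
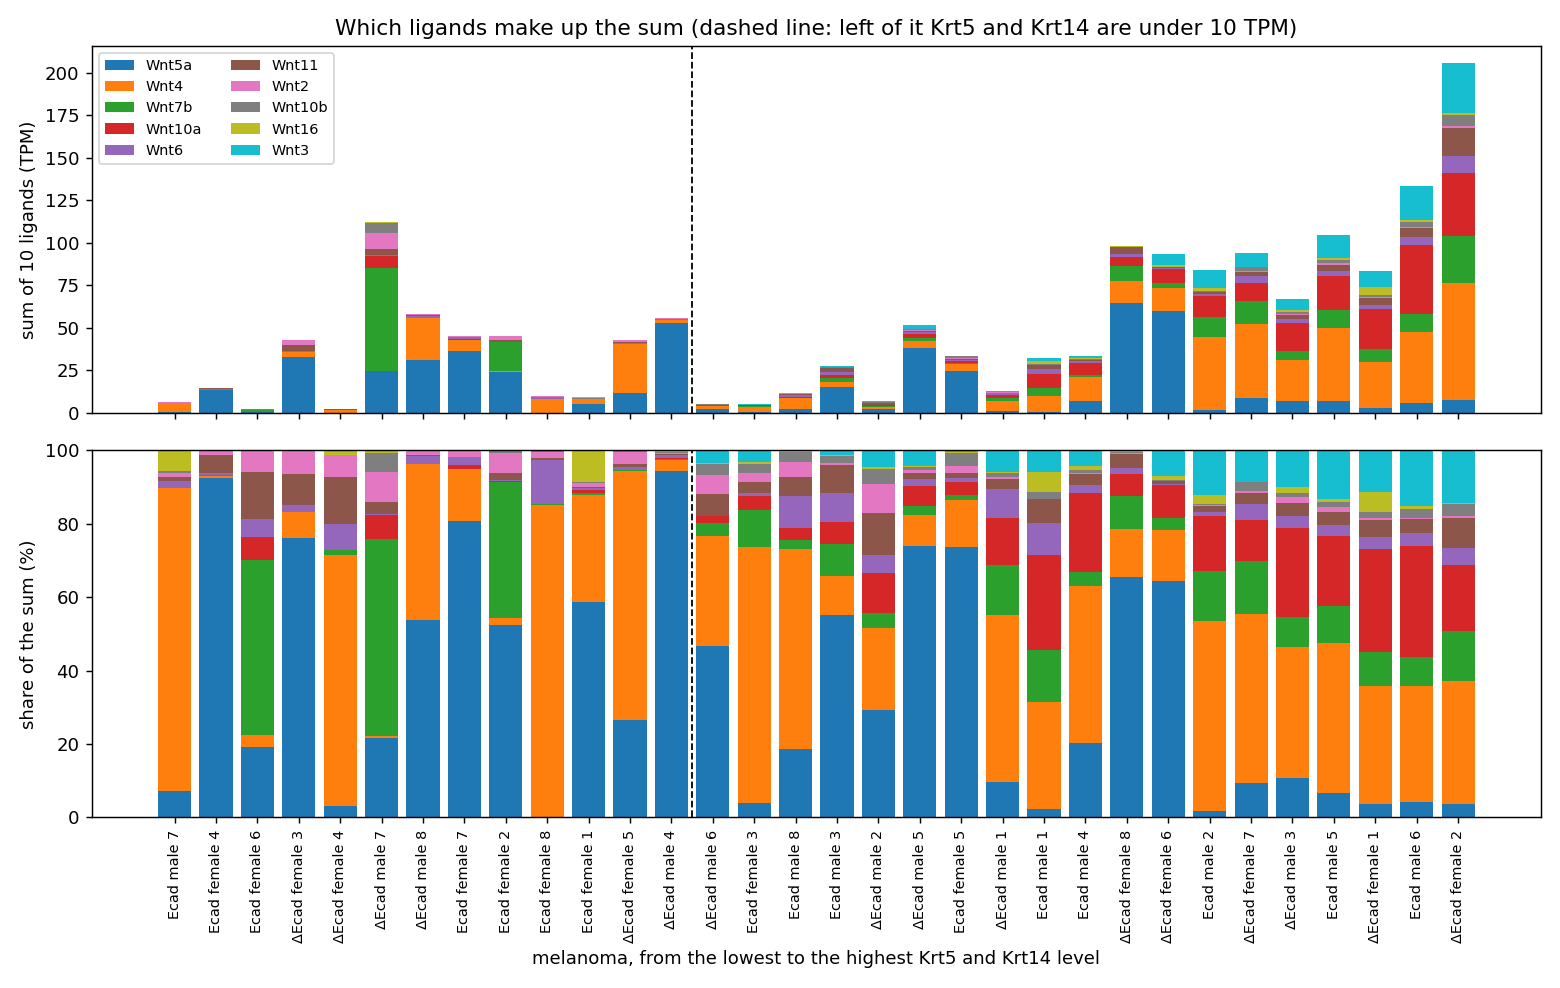
Sum of the 10 ligands in TPM (top) and share of each ligand in that sum in percent (bottom), tumours ordered from the lowest to the highest Krt5 and Krt14 level, with a dashed line between the 13 keratin-poor and the 19 keratin-rich tumours. Wnt3 and Wnt10a fill a growing share to the right, and on the left single ligands, Wnt5a, Wnt4 or Wnt7b, make up most of the sum.

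Several other marker lists also moved with the ligands that followed the keratins, to unlike degrees. Over the 32 tumours, the rho with the mean log2 CPM of the hair follicle markers was 0.852 for Wnt3 and 0.849 for Wnt10a, close to their values for the keratinocyte markers of 0.94 and 0.918. The adipocyte markers had their highest values with Wnt10b (0.758) and Wnt3 (0.735), and the fibroblast markers with Wnt11 (0.796) and Wnt10b (0.696). Schwann markers were highest with Wnt3 (0.747) and Wnt10a (0.696), and skeletal muscle markers with Wnt10b (0.697) and Wnt3 (0.655). The Spearman correlation with the melanocytic markers was negative, from -0.31 for Wnt4 to -0.564 for Wnt11 among the 8. Wnt5a had its highest values with B cell (0.447) and T cell (0.412) markers and -0.382 with melanocytic ones. Within the keratin-poor tumours the rho of Wnt5a was 0.692 with T cell and -0.742 with melanocytic markers. Within the keratin-rich tumours these were 0.182 and -0.156. Wnt2 had its highest value with fibroblast markers, at 0.39. These lists also move with each other, and which of them a ligand belongs to was not tested.

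The genes most like each ligand, by Spearman's rho over the 32 tumours among the 17717 genes, were of different kinds. Wnt3 was closest to Skint1 (0.978), Lce6a (0.97) and Lce1k (0.969), genes of the epidermis and its cornified layer. Wnt10a was closest to Bicdl2 (0.949), to Dsc3 (0.948), a desmosome cadherin, and to Ly6d (0.946). Wnt11 was closest to Rspo1 (0.91), a secreted enhancer of Wnt signalling, then to Hoxc5 and Tpbg (0.882 each). Wnt10b was closest to Dpt (0.868), a dermal matrix gene, with Gm5127 (0.85) and Dlx3 (0.844). Wnt7b had Atp6v1b1 (0.839), Wnt10a (0.835) and Duoxa1 (0.834), Wnt4 had Gm16136 (0.859), Klrg2 and Sdr42e1 (0.842 each), and Wnt6 had Naprt (0.816), Arvcf (0.813) and Hs3st6 (0.807). Wnt16 had Gm12866 (0.816), Cers3 and Pla2g3 (0.784 each). Wnt5a had lower values, with Ccbe1 (0.779), Slc13a3 (0.719) and Pthlh (0.704), and Wnt2 the lowest, with Lynx1 (0.664), Cygb (0.655) and Scara3 (0.645).

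Neighbouring Wnt genes did not all share a level. Wnt6 (chr1:74771892-74785322) and Wnt10a (chr1:74791516-74804179) lie on the same strand 6193 bases apart and had a rho of 0.631. Wnt10b (chr15:98770712-98778150) lies 11706 bases from Wnt1, which had 3 counts or fewer in 31 of 32 tumours. Wnt3 (chr11:103774150-103817957) lies 24328 bases from Wnt9b, with a rho of 0.51 and a median of 0.09 TPM for Wnt9b. The others were Wnt2 (chr6:17988940-18030585), Wnt16 (chr6:22288227-22298522), Wnt4 (chr4:137277489-137299726), Wnt5a (chr14:28504750-28527448), Wnt7b (chr15:85535437-85582473) and Wnt11 (chr7:98835112-98855195), all in GRCm38. Wnt5a, Wnt6, Wnt7b and Wnt11 overlap an annotated gene on the other strand, and, since no source used here says whether strand was used in counting, their counts are uncertain to that extent. The overlapping genes were low, with at most 38 counts for Gm2670 at Wnt5a, 2 for Gm29539 at Wnt6, 163 for AU022754 at Wnt7b and 0 for Gm8398 at Wnt11, and in none of the 32 tumours did one exceed the ligand's own count.

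The labelled genotypes, ΔEcad against Ecad, were compared within each sex by the quasi-likelihood test of edgeR on all 17717 genes. A gene was called where its p, adjusted by Benjamini-Hochberg over those genes, was under 0.05 and its level differed more than 2-fold. In females 1 of the 10 ligands was called, Wnt11, and it was higher in ΔEcad. In Ecad females Wnt11 ranged from 0.02 to 0.87 TPM with a median of 0.235 TPM. In ΔEcad females it ranged from 0.29 to 16.67 TPM with a median of 3.21 TPM. All 8 ΔEcad females lay above the median of the Ecad females and 5 above the highest of them, so the groups overlapped in the 3 lowest ΔEcad tumours. The log2 fold change was 3.60 (SE 0.87, adjusted p 0.0433). Across all genes 1.2% were called in this comparison, 205 higher and 8 lower. The call was a marginal one. It was lost without ΔEcad male 2 (log2 fold change 3.59, adjusted p 0.0503), and with each tumour left out in turn the adjusted p stayed under 0.05 in 17 of the 32 fits. The log2 fold change ranged from 2.70 without ΔEcad female 2 to 3.91 without Ecad female 2.

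All 10 ligands had a positive log2 fold change in females, with a median of 2.74, and 7 had an unadjusted p under 0.05, as did 15.3% of all genes. Wnt3 was at 0 TPM in 6 of the 8 Ecad females, at most 0.15 TPM, and at 0 to 29.39 TPM in ΔEcad females with 4 tumours above 6 TPM and 3 at 0 (log2 fold change 7.27, SE 1.91, adjusted p 0.0507). The size of that fold rests on the counts near 0. Wnt10a reached at most 1.12 TPM in an Ecad female and 37.17 TPM in a ΔEcad female, with 5 above every Ecad female and 3 at 0.03 TPM or less (5.21, SE 1.5, adjusted p 0.0595). Wnt4 had 6 of 8 ΔEcad females above all Ecad females, with medians of 3.08 and 19.97 TPM (2.85, SE 0.92, adjusted p 0.0909). Wnt6 was above the Ecad female median in 8 of 8 ΔEcad females, with 0.12 against 1.25 TPM at the median (2.61, SE 0.88, adjusted p 0.107). Wnt10b (2.81, adjusted p 0.211), Wnt16 (2.69, adjusted p 0.246) and Wnt7b (1.82, adjusted p 0.629) were farther from the threshold. The ligands that did not follow the keratins had the smallest differences, 0.76 for Wnt5a (SE 0.98, adjusted p 0.8) and 0.60 for Wnt2 (SE 0.89, adjusted p 0.834). Since the ligands were sorted by the keratins over these same tumours, that contrast is no separate result.

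The keratins themselves differed between the female groups. The median of Krt5 was 0.125 TPM with Ecad and 1829 TPM with ΔEcad, and the keratinocyte markers summed to a median of 8.28 and 7286 TPM, with hair follicle markers at 0.68 and 104 TPM. Fibroblast markers, the list with which Wnt11 had its highest rho, summed to a median of 331 and 1326 TPM, with ranges of 83.5 to 4221 and 365.6 to 9219 TPM that overlapped, and skeletal muscle markers to 13.7 and 954 TPM. Their part in the differences was not tested. With the Krt5 and Krt14 level as a covariate in the same model, no ligand was called by edgeR, and the log2 fold change of Wnt11 was 2.88 (adjusted p 0.257), that of Wnt3 1.07 (adjusted p 0.993), that of Wnt10a 1.94 (adjusted p 0.826) and that of Wnt4 2.13 (adjusted p 0.525). The covariate is the level by which the ligands were sorted, and Wnt3 and Wnt10a followed it most closely. That their differences shrank more than that of Wnt11 was not tested and is no separate result. Wnt7b moved from 1.82 to 1.74 (adjusted p 0.931). Over all genes 7 were called with the covariate and 213 without it, 4 of them in both. DESeq2 called 5 ligands in females without the covariate, Wnt3, Wnt4, Wnt6, Wnt10a and Wnt11, among 1281 of the 17717 genes. In the same comparison limma on log2(TPM + 0.1) called no ligand and 1 gene.

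In males no ligand was called by edgeR, as was no gene of all those tested (0% called), and neither DESeq2 nor limma called a ligand. A single ligand, Wnt2, had an unadjusted p under 0.05, as did 10.2% of all genes, and the smallest adjusted p was 0.442. Without ΔEcad male 2 there were 2, Wnt2 and Wnt5a (smallest adjusted p 0.648). Wnt2 lay at 0 to 1.32 TPM in Ecad males (median 0.095) and 0.05 to 9.12 TPM in ΔEcad males (median 0.46), with 6 of 8 ΔEcad males above the Ecad median (log2 fold change 2.24, SE 0.92, adjusted p 0.442). Without ΔEcad male 7, the tumour with the highest value, it was 0.78. Wnt5a lay at 0.46 to 15.1 TPM in Ecad males and at 1.25 to 52.76 TPM in ΔEcad males, 4 of which exceeded all Ecad males (2.06, SE 1.02, adjusted p 0.489). The ligands that followed the keratins had negative values for 6 of 8, with -2.02 for Wnt3 (SE 1.48), -1.50 for Wnt10a (SE 1.27), -1.41 for Wnt16 (SE 1.13), -0.89 for Wnt4 (SE 0.87), -0.84 for Wnt6 (SE 0.84) and -0.77 for Wnt11 (SE 0.79), none of them past the threshold. Wnt7b and Wnt10b turned from 0.80 and 0.21 to -1.58 and -1.24 when ΔEcad male 7 was left out. The Krt5 median was 1123 TPM in Ecad males and 67.1 TPM in ΔEcad males, so negative values of ligands sorted by the keratins are no separate result.

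**Figure D4:**
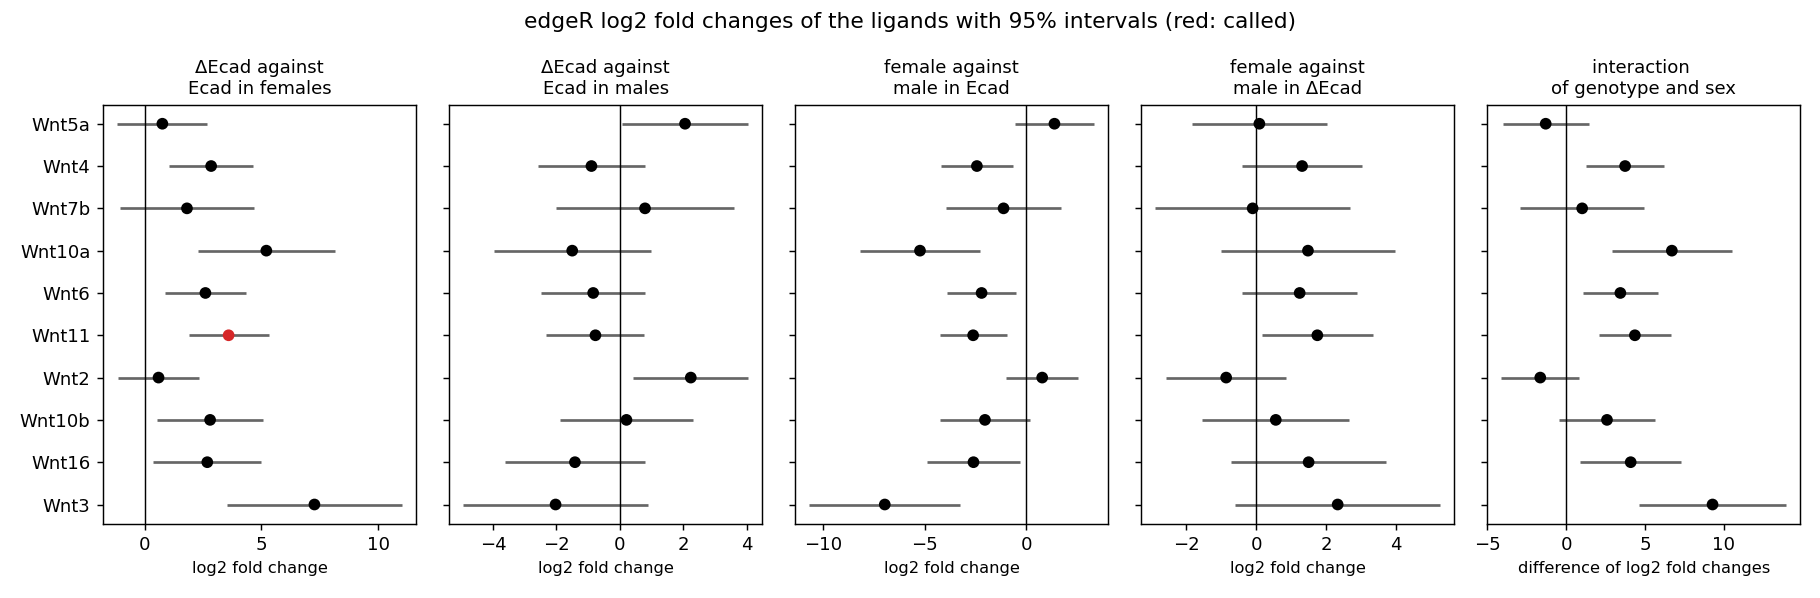
log2 fold change of each ligand with its 95% interval in the 4 comparisons and, at the right, the interaction of genotype and sex (the change in females minus that in males), from edgeR over all 32 tumours. The one called value, Wnt11 in females, is red, and the axes differ between panels.

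The sexes were compared within each genotype. Among Ecad tumours no ligand was called by edgeR (0.0508% of all genes were), although 6 of the 10 had an unadjusted p under 0.05, against 16% of all genes, and 8 had a negative log2 fold change. The lowest adjusted p was that of Wnt3 at 0.0974 (log2 fold change -6.96, SE 1.89), followed by Wnt10a at 0.108 (-5.23, SE 1.5), Wnt11 at 0.122 (-2.62, SE 0.84) and Wnt4 at 0.175 (-2.43, SE 0.91). DESeq2 called these 4, among 1023 of the 17717 genes, and limma on log2(TPM + 0.1) called no ligand. No Ecad female reached the Ecad male median of Wnt3, Wnt4, Wnt6, Wnt10a or Wnt11, and at least 3 females lay below every male for Wnt4, Wnt6, Wnt10b, Wnt11 and Wnt16. Wnt5a and Wnt2 had positive values of 1.38 (SE 1.00) and 0.78 (SE 0.90). The Krt5 median was 0.125 TPM in Ecad females and 1123 TPM in Ecad males, so this split too is no separate result. With the keratin level as a covariate no ligand was called and the log2 fold changes of Wnt3 and Wnt10a were -0.65 and -2.04. Among ΔEcad tumours no ligand was called by edgeR, DESeq2 or limma (0.0395% of all genes were by edgeR), and Wnt11 alone had an unadjusted p under 0.05 (1.75, SE 0.81, adjusted p 0.555), as did 8.81% of all genes. Without ΔEcad male 2 no ligand had one, and the smallest adjusted p was 0.676. Of the 10 ligands, 8 had a positive log2 fold change there, and 7 without that tumour.

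Whether the difference between the labelled genotypes was unlike in the 2 sexes was asked with the interaction term. No ligand was called by edgeR, as was no gene (0%), while 6 ligands had an unadjusted p under 0.05, against 17.7% of all genes. DESeq2 called 5 ligands (Wnt3, Wnt4, Wnt6, Wnt10a and Wnt11), among 1225 of the 17717 genes, and limma called none. The smallest adjusted p values were 0.0526 for Wnt3 (difference of log2 fold changes 9.29, SE 2.39), 0.0546 for Wnt11 (4.36, SE 1.16) and 0.0624 for Wnt10a (6.71, SE 1.93). The 8 following ligands all had positive values, and Wnt5a (-1.30, SE 1.39) and Wnt2 (-1.64, SE 1.26) negative ones. The 5 comparisons share groups, so their values for a ligand are not independent of each other. With the keratin level as a covariate, the interaction of Wnt3 was 1.05 (adjusted p 0.965) and that of Wnt11 3.12 (adjusted p 0.613).

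The other genes of the pathway were taken from a list of 59, of which 51 were abundant enough to be tested. In females 1 of the 51 was called, against 1.2% of all genes. It was Sfrp1, a secreted inhibitor that binds Wnt proteins, which was higher in ΔEcad (log2 fold change 4.26, SE 0.94, adjusted p 0.0394). The level of Sfrp1 ran from 0.78 to 17.96 TPM with Ecad and from 2.04 to 589.81 TPM with ΔEcad, and without the highest, ΔEcad female 3, the ΔEcad mean fell from 94.8 to 24.1 TPM against 4.38 TPM in Ecad females. In males, in the sexes within Ecad and within ΔEcad and in the interaction, edgeR called 0 of the 51, with 5, 13, 10 and 15 of them at an unadjusted p under 0.05, against 10.2%, 16%, 8.81% and 17.7% of all genes. DESeq2 called 1, 8, 1 and 10 of the 51 there, against 21, 1023, 24 and 1225 of the 17717 genes. In the females, 22 of the 51 had an unadjusted p under 0.05, against 15.3% of all genes, and 36 had a positive log2 fold change (median 0.74).

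By role, the counts in females are to be read against the same 15.3% of all genes. Of 5 other ligands tested, 2 had an unadjusted p under 0.05, Wnt3a and Wnt9a, and the most abundant were Wnt5b with a median of 2.53 TPM and Wnt9a with 2.06 TPM over all tumours. Of 4 genes of lipid attachment, transport and removal, 3 did so. Wls, at a median of 70.2 TPM, was among the most abundant genes of the pathway and had a log2 fold change of -0.36 (SE 0.26, adjusted p 0.577), and Porcn was at 16.6 TPM. Of 16 receptors, 6 did so, with Ryk at 63.1 TPM and Fzd1 at 46.0 TPM the most abundant. Of 8 genes listed as enhancers 5 did so (median log2 fold change 3.18), and Lgr4 at 15.5 TPM and Znrf3 at 3.72 TPM were the most abundant. That list also holds the ubiquitin ligases Rnf43 and Znrf3, which remove Frizzled receptors and so are no enhancers themselves. Rnf43 was among the 5. Of 12 genes listed as inhibitors 6 had an unadjusted p under 0.05 (median log2 fold change 2.67). Dkk3 stood far above the others of that list with 579.0 TPM, followed by Kremen1 with 42.0 TPM. Whether Dkk3 or the others inhibit Wnt signalling in these tumours was not tested. Of the 6 genes listed here as responding to beta-catenin signalling, none had an unadjusted p under 0.05 (median log2 fold change -0.62). Tcf7 at 38.5 TPM and Nkd2 at 34.2 TPM were the most abundant. The 6 are not all the genes that respond to it, so their values speak only of themselves. Apcdd1 and Notum, listed here as an inhibitor and as the enzyme that removes the lipid, are also known to be induced by beta-catenin signalling, and had log2 fold changes of 2.96 (SE 0.82, adjusted p 0.0541) and 2.93 (SE 1.29, adjusted p 0.251). They were named after their values were seen.

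Some of these genes followed the keratins as the ligands did. Of the 51 tested, 9 (17.6%) reached a rho of 0.6, against 9.08% of all genes. They were Wnt3a (0.947), the inhibitor Sostdc1 (0.934), the receptors Fzd10 (0.929) and Fzd4 (0.656), the ubiquitin ligase Rnf43 (0.838), which removes Frizzled receptors, the inhibitors Kremen2 (0.786) and Sfrp5 (0.761), Porcn (0.765) and Rspo1 (0.727). They were singled out after their values were seen, as was Axin2. Among the response genes, Axin2, the feedback gene most used as a readout of beta-catenin, had a rho of -0.004 with the keratins and medians of 17.6 TPM in keratin-poor and 21.7 TPM in keratin-rich tumours. The other response genes ran from -0.34 for Tcf7 to 0.349 for Sp5, whose medians were 0.07 and 1.39 TPM. Apcdd1 had a rho of 0.545, with medians of 2.02 and 10.24 TPM, and Notum one of 0.14.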

How the data were processed

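Per the labels and the study's methods, the authors extracted tumour RNA, kept samples with an RNA integrity number above a set limit, prepared stranded libraries of polyadenylated RNA, sequenced them in pairs, checked the reads with FastQC 0.11.5 and mapped them with STAR to GRCm38.p5 (mm10) with GENCODE M13. The authors deposited raw counts per gene and TPM for all 32 tumours. Batch correction is described where applicable, and whether these tables were corrected is not given in the sources used here. Symbols and coordinates came from GENCODE M21, which named 50376 of 50600 identifiers. No pair of tumours had a correlation above 0.964, that of ΔEcad male 3 with ΔEcad female 1, and none was treated as a duplicate. A count of 0 allows up to 3 counts, for counting error only.

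Counts were tested with the two-sided quasi-likelihood test of edgeR 4.0.16 (TMM factors, robust option, filter by filterByExpr with the groups) in 1 model with a coefficient per group, which kept 17717 genes (common dispersion 0.624). The script was tested on simulated data. The standard error came from the test statistic. The keratin level was the mean log2 CPM of Krt5 and Krt14 with a prior count of 1. Neighbouring levels were tested by 100000 sign flips of log2(TPM + 0.1). Cell type lists held 78 markers, 1 of them without a row. The members, lists and tests were chosen with earlier results of these data known. Named were the 10 ligands, Krt5, Krt14, Cdh1, the 3 genes most like each ligand, and of the other pathway genes those called and the 2 most abundant per role. Pathway genes outside this rule were named after their values were seen. Alternatives were DESeq2 1.42.0, limma 3.58.1, other factors, filters and samples, a block, the keratin covariate, each tumour left out and other thresholds. Scripts ran in R 4.3.3 and in Python 3.11.15 with matplotlib 3.10.9, numpy 2.4.6, scipy 1.17.1 and pandas 2.3.3.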

Additional observations from a re-analysis of the deposited data

Results flagged for a closer look

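Of the 40 sets formed by 10 ligands and 4 groups of 8 tumours, 2 held a tumour far from the rest by Dixon's test, and chance flags about 1 in 20 such sets. Both were low values of Wnt6. In Ecad male 7, the 1 keratin-poor tumour among the Ecad males, Wnt6 was at -3.13 log2 CPM (0.11 TPM), where the next lowest Ecad male was at -0.55. In ΔEcad male 6, the keratin-rich tumour with the lowest keratin level, Wnt6 was at -5.19 log2 CPM (0 counts), where the next lowest ΔEcad male was at -1.84.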

How the results depend on the processing

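With DESeq2, ligands called were 5 in females, 4 for the sexes in Ecad and 5 for the interaction, genes called were 1281 in females, 21 in males, 1023 for the sexes in Ecad, 24 for the sexes in ΔEcad and 1225 for the interaction, and other pathway genes were 15, 1, 8, 1 and 10, against 1, 0, 0, 0 and 0 with edgeR. In females, where edgeR called 1 ligand, 213 genes and 1 pathway gene, limma on log2(TPM + 0.1) called 0, 1 and 0, RLE factors 2, 322 and 4, no filter 2, 555 and 4, only the tumours compared (in which fewer ligands passed the filter) 0, 1 and 0, no robust estimation 2 ligands and 2 pathway genes, the keratin covariate 0, 7 and 0, and the fit without ΔEcad male 2 called 0 ligands and 101 genes. The tumour number as a block called 0 ligands, 1 gene and 0 pathway genes. Same-numbered tumours did not deviate together (correlations from -0.547 to 0.423, 1 of 32 closest to its own number). Differences in tissue content between tumours could hide a pairing, so whether the numbers pair tumours is not known. For the interaction, limma called 1 gene, RLE factors 1 ligand, 201 genes and 4 pathway genes, and no filter 284 genes and 2 pathway genes. For the sexes in Ecad the covariate gave 14 genes, and in ΔEcad only the tumours compared gave 0. Leaving out each tumour gave 0 to 4 ligands and 1 to 695 genes in females (1 without Ecad female 1, 695 without ΔEcad female 4), 8 to 21 genes for the sexes in Ecad, and 0 to 3 ligands and 0 to 848 genes for the interaction (848 without ΔEcad male 3). Ligands taken to follow the keratins numbered 4 at a rho of 0.7 and 5 by Pearson's r, limits for which no share of all genes is given. Neighbours that differed numbered 1 with a pseudocount of 0.01 TPM and 4 with 1 TPM. Uncalled log2 fold changes turned sign as follows. In males, Wnt3 was 0.014 and Wnt10a 1.04 with the covariate, Wnt7b -1.10 and Wnt10b -0.33 with limma, and -1.04 and -0.70 with the block. For the sexes in Ecad, Wnt2 was -0.20 with the covariate. For the sexes in ΔEcad, Wnt2 was 0.11, Wnt5a -0.075 and Wnt7b 0.84 with limma, Wnt5a -0.079 without ΔEcad male 2, Wnt7b 0.009 with DESeq2, 0.008 with RLE factors and 0.47 with the block, and Wnt10a -1.15 and Wnt10b -1.85 with the covariate. In the interaction, Wnt10b was -1.01 with the covariate. The cause of these changes was not tested.

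Under the alternatives other than leaving out each tumour in turn, 5 of the single ligands' values lost the threshold, all of them Wnt11 in females, 17 passed it that had not, and 389 kept direction and side. The call of Wnt11 in females was lost without any 1 of Ecad males 1, 2 and 4, Ecad females 1, 2, 3, 4, 6, 7 and 8, ΔEcad males 2 and 5, or ΔEcad females 1, 2 and 7, and ligands were called in the interaction without any 1 of Ecad males 3, 7 and 8, Ecad female 5, ΔEcad male 3, or ΔEcad females 3, 4, 5 and 8. Folds of ligands with few counts, such as Wnt3, Wnt16 and Wnt10b, rest on values near 0.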
